A study of Mus musculus with 16 samples.

Results

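The mouse Xlr3 and Xlr4 genes are close copies of each other on chromosome X, and they lie beside Pnma5 and Pnma3. The cluster described here has 8 members, chosen by symbol from the 26127 genes of the deposited table. They are Xlr3a, Xlr3b, Xlr3c, Xlr4a, Xlr4b, Xlr4c, Pnma5 and Pnma3. They were proposed as a cluster silenced by DNA methylation, so their levels in the knockouts against wildtype are given below as a description without a test. In the build NCBIM37 they span 231.403 kb, from 70279327 to 70510729 of chromosome X.

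Sequencing covered total RNA, without ribosomal RNA, in 16 libraries of cultured mouse embryonic stem cells (ESCs). There were 8 wildtype (WT) libraries (1A to 4B), 4 libraries of Dnmt1 -/- cells (Dnmt1 KO, 1A to 2B) and 4 libraries of Dicer/Dnmt1 -/- cells (Dicer/Dnmt1 KO, 1A to 2B). The labels place all 3 groups in the E14 background and give neither a time after deletion nor the meaning of the letters A and B. The methods of the study describe another parent for its Dnmt1 knockouts, in which a floxed Dnmt1 was deleted by a Cre recombinase that tamoxifen activates. The study removed Dicer either conditionally together with Dnmt1 or constitutively by CRISPR, and the labels do not say which holds here. Culture was in serum and LIF with or without feeder cells. Where each library came from is therefore uncertain, and nothing says that the libraries of a group are separate cultures, so p-values measure only the spread between these libraries.

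Libraries held 31.46 to 52.54 M reads, with 44.18% to 48.71% of them in listed genes, and 3 reads, the most that a count of 0 allows, corresponded to 0.0571 to 0.09537 reads scaled to the library total (RPM). Dnmt1, the targeted gene, averaged log2 RPM 7.06 ± 0.89 (SD, n = 8) in WT, 4.40 ± 0.19 (n = 4) in Dnmt1 KO and 4.57 ± 0.07 (n = 4) in Dicer/Dnmt1 KO. WT 4A and WT 4B stood apart at 5.69 and 5.55, beside 7.40 to 7.66 in the other WT libraries, and the members and gene families were compared with WT also without them, an alternative added after the data were seen. Dicer1 averaged 5.27 ± 0.40 in WT, 5.46 ± 0.19 in Dnmt1 KO and only 3.87 ± 0.16 in Dicer/Dnmt1 KO. The summed RPM of 6 sex chromosome genes was 1.925 to 2.837 in WT, 28.25 to 33.36 in Dnmt1 KO and 30.07 to 37.93 in Dicer/Dnmt1 KO. In each knockout 5 of 5 tested genes were higher, beside 23.5% of all genes tested for Dnmt1 KO and 31.9% for Dicer/Dnmt1 KO. Between the knockouts, Xist was higher in Dicer/Dnmt1 KO by 0.77 on the log2 scale (limma adjusted p = 0.0142) and Usp9y lower (-1.27, adjusted p = 0.0148). The WT libraries thus differ from both knockouts in Xist and in genes of chromosome Y, as well as in Dnmt1. A difference between the lines and the effect of the genotype therefore cannot be told apart in any comparison with WT. Summed ESC markers overlapped between the groups (1853 to 3322 RPM in WT, 1690 to 2367 in Dnmt1 KO and 1905 to 2244 in Dicer/Dnmt1 KO). By limma, 3 of the 8 markers were lower and 0 higher in Dnmt1 KO, beside 17.5% and 23.5% of all genes tested. In Dicer/Dnmt1 KO against WT 1 was lower and 0 higher, beside 30.1% and 31.9%. Against Dnmt1 KO, Dicer/Dnmt1 KO had 3 higher and 1 lower, beside 16.9% and 19.4%. The 450 tested genes of chromosome X outside the cluster had a median log2 difference from WT of 0.026 for Dnmt1 KO and 0.0055 for Dicer/Dnmt1 KO.

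Xlr stands for X-linked lymphocyte regulated. These genes encode small nuclear proteins with a coiled coil, related to SYCP3, a protein of the meiotic chromosome axis, and several of them are known from lymphoid and germ cells. Xlr3b, Xlr4b and Xlr4c are known as imprinted genes that are expressed from the maternal X chromosome in mouse brain. The PNMA (paraneoplastic Ma antigen) genes derive from the gag gene of a retrotransposon. Dnmt1 encodes the enzyme that copies DNA methylation to the new strand when cells divide, whereas the product of Dicer1 cuts double-stranded RNA into microRNAs and other short RNAs. Methylation of CpG dinucleotides in a promoter is a known mark of stable silencing, and genes of the germline and of imprinted loci are among those that ESCs are known to silence in this way.

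The promoters are shown because methylation acts on their CpG dinucleotides, which are in capitals below. Each sequence holds the 250 bases before the start of the gene from the RefSeq table of GRCm38.p6, read 5′ to 3′ on the strand of the gene, and each was found once on chromosome X of NCBIM37. Xlr3a, Xlr3c and Xlr4b stand for the 6 paralogs, and both Pnma genes are shown because they differed in level. The first is Xlr3a (chrX:70342435-70342684, minus strand), with 3 CpG.
Xlr3a: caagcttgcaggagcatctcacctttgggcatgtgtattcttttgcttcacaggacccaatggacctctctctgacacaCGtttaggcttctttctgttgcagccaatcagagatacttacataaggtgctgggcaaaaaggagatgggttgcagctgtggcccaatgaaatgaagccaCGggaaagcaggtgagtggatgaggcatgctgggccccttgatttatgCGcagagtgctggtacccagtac
The next is Xlr3c (chrX:70510730-70510979, minus strand), with 6 CpG, the same number as in Xlr3b.
Xlr3c: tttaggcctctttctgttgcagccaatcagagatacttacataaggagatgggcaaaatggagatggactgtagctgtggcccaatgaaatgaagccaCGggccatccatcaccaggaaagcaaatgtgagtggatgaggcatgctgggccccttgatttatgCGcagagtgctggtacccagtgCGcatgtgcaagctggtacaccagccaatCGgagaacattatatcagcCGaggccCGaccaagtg
Xlr4b (chrX:70459422-70459671, plus strand) has 8 CpG, as does Xlr4a, and Xlr4c has 5.
Xlr4b: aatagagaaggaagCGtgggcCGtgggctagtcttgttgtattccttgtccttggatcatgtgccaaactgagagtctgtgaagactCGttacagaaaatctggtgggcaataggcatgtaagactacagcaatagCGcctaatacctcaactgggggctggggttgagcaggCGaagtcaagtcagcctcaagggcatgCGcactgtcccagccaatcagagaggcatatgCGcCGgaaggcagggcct
Pnma5 (chrX:70282443-70282692, minus strand) has 0 CpG.
Pnma5: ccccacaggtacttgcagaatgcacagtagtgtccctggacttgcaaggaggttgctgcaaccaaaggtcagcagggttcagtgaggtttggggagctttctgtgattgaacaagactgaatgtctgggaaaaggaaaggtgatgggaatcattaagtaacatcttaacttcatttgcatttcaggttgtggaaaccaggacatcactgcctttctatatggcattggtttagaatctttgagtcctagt
Pnma3 (chrX:70309876-70310125, plus strand) has 5 CpG.
Pnma3: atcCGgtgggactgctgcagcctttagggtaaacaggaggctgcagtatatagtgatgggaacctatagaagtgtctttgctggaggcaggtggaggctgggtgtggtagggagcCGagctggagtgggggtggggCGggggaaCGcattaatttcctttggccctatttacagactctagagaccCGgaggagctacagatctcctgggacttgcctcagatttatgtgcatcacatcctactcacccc

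Over 32851 RefSeq promoters of this length the median was 6 CpG. The promoters of the 6 Xlr paralogs were therefore near the middle of all promoters, with 29.03% (Xlr3a) to 57.0% (Xlr4a and Xlr4b) of promoters holding fewer CpG. The longest run common to all 6 was 14 bases, CAGCCAATCAGAGA, which stands in 16 of the 32851 promoters (0.0487%). It began 150, 24 and 231 bases before the start in Xlr3a, Xlr3b and Xlr3c, and 47, 40 and 17 bases before it in Xlr4a, Xlr4b and Xlr4c. The run holds the letters CCAAT, which on either strand occur in 33.85% of all promoters. Pnma5 has 1 match to CCAAT and Pnma3 has 0. The letters TATAAA, searched on both strands, are in 12.37% of all promoters and in 0 of the 8 members. These matches describe the letters of each window and no methylation was measured here.

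The paralogs are so alike that a read can fit more than 1 of them. Over the coding sequence Xlr3b and Xlr3c were identical at 99.41% of aligned bases, and Xlr3a at 98.2% with either of them. The Xlr4 genes were identical at 98.92% to 99.54%. Xlr3b and Xlr4b were identical at 64.64% of aligned bases, and Pnma5 and Pnma3 at 65.86%. Pairs of an Xlr and a Pnma gene gave higher values between the gaps of the alignment, such as 77.93% for Xlr3b and Pnma5. Relatedness is therefore not read from values of this size. The authors discarded alignments of low mapping quality, which limits the counted reads from stretches that copies share. The study sequenced its total RNA libraries from both ends, so a read in a shared stretch could still count through its mate. Of all 100-base windows of the longest coding transcript, 63.7% occurred nowhere else in the NCBIM37 genome or its coding transcripts for Xlr3a, 25% for Xlr3b and 42.9% for Xlr3c. The share was 54.5% for Xlr4a, 41.0% for Xlr4b and 54.8% for Xlr4c. Pnma5 and Pnma3 were more distinct, with 80.5% and 84.2%. Xlr3b shared 40.34% of its windows with Xlr3a and 43.28% with Xlr3c, and Xlr4b shared 48.71% with Xlr4c. Levels of single Xlr3 and Xlr4 genes are therefore uncertain between copies, and family sums are given beside them.

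**Figure D1:**
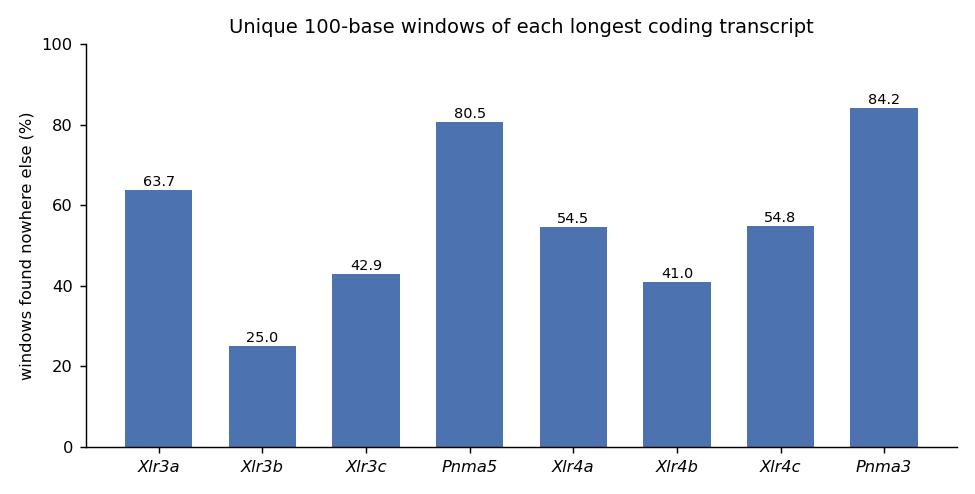
The bars give, for each of the 8 members, the percentage of 100-base windows of its longest coding transcript that occur nowhere else in the genome or its coding transcripts. Xlr3b has the lowest share at 25%, and Pnma3 and Pnma5 the highest at 84.2% and 80.5%.

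All 6 Xlr3 and Xlr4 genes and Pnma5 were higher in each of the 8 knockout libraries than in each of the 8 WT libraries, while Pnma3 was not. This non-overlap was found for 7 of 8 members in both knockouts, and for 11.1% of all genes with a read for Dnmt1 KO and 16% for Dicer/Dnmt1 KO. Both comparisons use the same WT libraries, and since the cluster was chosen for this difference nothing is read from the count. By the limma fit without a filter on low values, 17.3% of all genes were higher for Dnmt1 KO and 23.8% for Dicer/Dnmt1 KO.

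Xlr3a (ENSMUSG00000057836, 70331632 to 70342434, minus strand) had reads in 4 of 8 WT libraries, with 0 RPM at the lowest, 0.0377 at the median and 0.217 at the highest, which was 10 reads. Its levels in Dnmt1 KO 1A, 1B, 2A and 2B were 4.77, 3.78, 3.61 and 3.64 RPM, and in Dicer/Dnmt1 KO 1A, 1B, 2A and 2B they were 1.81, 1.89, 2.54 and 1.94 RPM. The 3 groups did not overlap, and Dicer/Dnmt1 KO lay between WT and Dnmt1 KO. Summed over libraries the level was 48.05 times that of WT in Dnmt1 KO (95% exact counting interval 32.67 to 73.56) and 25.15 times in Dicer/Dnmt1 KO. WT 4A and WT 4B held 17 of the 27 WT reads, and without them the ratios were 98.38 (53.1 to 206.3) and 51.5 (27.6 to 108.6). Such intervals and floors cover counting error only, since no molecular identifier told copies of 1 molecule apart.

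Xlr3b (ENSMUSG00000073125, 70437546 to 70448269, plus strand) had reads in 6 of 8 WT libraries, from 0 over a median of 0.0444 to 0.173 RPM. Its levels were 5.02, 3.58, 4.29 and 3.43 RPM in the Dnmt1 KO libraries and 2.05, 1.79, 3.90 and 3.24 RPM in the Dicer/Dnmt1 KO libraries. The 2 knockouts overlapped, because Dicer/Dnmt1 KO 2A lay above Dnmt1 KO 1B and 2B. The pooled level was 70.44 times that of WT in Dnmt1 KO (44.7 to 117.8) and 48.15 times in Dicer/Dnmt1 KO, and without WT 4A and WT 4B the ratios were 92.27 and 63.08.

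Xlr3c (ENSMUSG00000058147, 70499879 to 70510729, minus strand) had at least 1 read in each WT library, from 0.0213 over 0.0810 to 0.0952 RPM. Its levels were 2.46, 2.07, 2.18 and 2.03 RPM in Dnmt1 KO and 1.73, 1.70, 2.82 and 2.29 RPM in Dicer/Dnmt1 KO. The highest and the lowest of these 8 values were both in Dicer/Dnmt1 KO. The pooled level was 31.28 times that of WT in Dnmt1 KO (20.47 to 50.07) and 30.87 times in Dicer/Dnmt1 KO, so Xlr3c stood at about the same multiple of WT in both knockouts. Without WT 4A and WT 4B the ratios were 34.1 and 33.65.

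The Xlr4 genes were scarcer. Xlr4a (ENSMUSG00000079845, 70319684 to 70327817, minus strand) had 1 read in all WT libraries together, 0.608, 0.625, 0.405 and 0.485 RPM in Dnmt1 KO and 0.459, 0.503, 0.366 and 0.254 RPM in Dicer/Dnmt1 KO. The knockout libraries held 8 to 26 reads of it each, and the 2 knockouts overlapped. The ratio to WT was 175.9 in Dnmt1 KO, and with 1 WT read its counting interval ran from 30.64 to 7035. That read was not in WT 4A or WT 4B, and without these libraries the ratio was 133.4 (23.23 to 5335).

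Xlr4b (ENSMUSG00000067768, 70459672 to 70467795, plus strand) had 5 reads in 3 of 8 WT libraries, up to 0.0596 RPM. In Dnmt1 KO it split by letter, with 0.274 and 0.297 RPM in 1A and 2A and 0.698 and 0.879 RPM in 1B and 2B, which was 9 and 11 against 29 and 29 reads. In Dicer/Dnmt1 KO it was at 0.135, 0.252, 0.261 and 0.159 RPM. All 4 of these values lay below the lowest Dnmt1 KO library, by a small margin of reads. The pooled level was 35.63 times that of WT in Dnmt1 KO (14.63 to 112.8) and 13.34 times in Dicer/Dnmt1 KO. As 4 of the 5 WT reads were in WT 4A and WT 4B, the ratios without them rested on 1 WT read, at 135.1 (23.55 to 5404) and 50.59 (8.365 to 2069).

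Xlr4c (ENSMUSG00000031362, 70479027 to 70488469, minus strand) had 1 read in WT, 0.365, 0.601, 0.728 and 0.637 RPM in Dnmt1 KO and 0.135, 0.252, 0.288 and 0.381 RPM in Dicer/Dnmt1 KO. Only Dicer/Dnmt1 KO 2B reached the lowest Dnmt1 KO library. The ratio to WT was 194.1 in Dnmt1 KO, again with a wide interval of 33.92 to 7757. The WT read was in WT 4A, so against the other WT libraries, set to a floor of 3 reads over the group, Xlr4c was at least 49.07-fold higher in Dnmt1 KO and at least 21.68-fold higher in Dicer/Dnmt1 KO.

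Pnma5 (ENSMUSG00000050424, 70279327 to 70282442, minus strand) had the highest RPM of the members in all 3 groups. WT libraries lay at 0.298 to 0.628 RPM except WT 4A and WT 4B, at 1.54 and 1.58 RPM, which are the WT libraries with low Dnmt1. The Dnmt1 KO libraries lay close together at 12.5, 12.4, 11.5 and 11.6 RPM, and the Dicer/Dnmt1 KO libraries at 5.02, 7.55, 6.61 and 6.71 RPM. The groups did not overlap. The pooled level was 17.79 times that of WT in Dnmt1 KO (15.47 to 20.54) and 9.509 times in Dicer/Dnmt1 KO. WT 4A and WT 4B held 124 of the 223 WT reads, and without them the ratios were 30.39 (24.81 to 37.6) and 16.24 (13.19 to 20.2). Its promoter window is the one without a CpG.

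Pnma3 (ENSMUSG00000046287, 70310126 to 70313529, plus strand) did not show the difference from WT seen in the other members. WT libraries ran from 0 over 0.0872 to 0.238 RPM, Dnmt1 KO libraries lay at 0.0912, 0.216, 0.135 and 0 RPM, and Dicer/Dnmt1 KO libraries at 0.054, 0.0944, 0.131 and 0 RPM. All 3 groups overlapped near the limit of detection, and the pooled ratio to WT was 1.142 in Dnmt1 KO (0.5983 to 2.102) and 0.7008 in Dicer/Dnmt1 KO (0.3088 to 1.451). Without WT 4A and WT 4B it was 1.472 (0.7243 to 2.959) and 0.9035 (0.3777 to 2.022). With 84.2% unique windows it is the member least affected by shared sequence. It lies between Pnma5 and Xlr4a, so the genes that were higher flank a gene that showed no such difference.

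**Figure D2:**
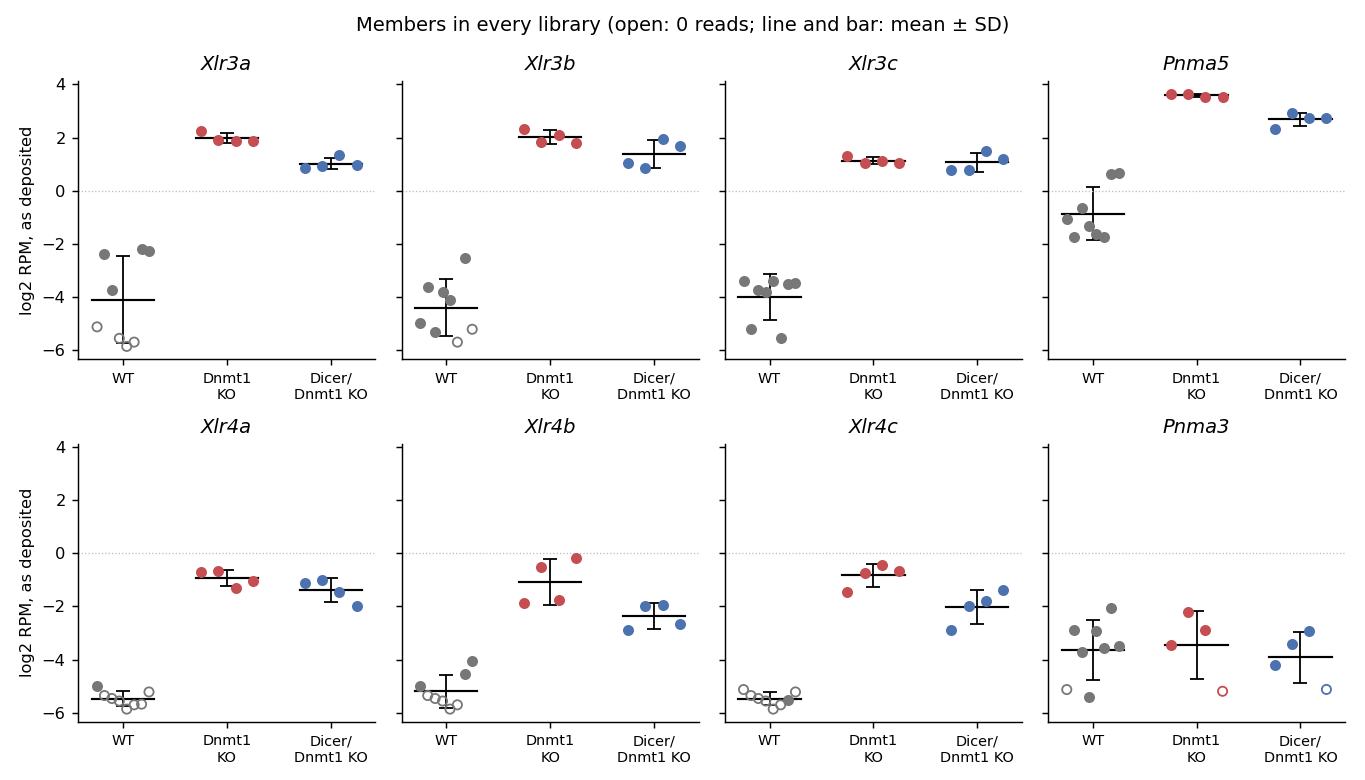
Each point is 1 library, with log2 RPM as deposited on the vertical axis, for the 8 members in WT (n = 8), Dnmt1 KO (n = 4) and Dicer/Dnmt1 KO (n = 4), where lines and bars are the mean ± SD and open points have 0 reads. For all members but Pnma3 the knockout libraries sit above all WT libraries, whereas the Pnma3 libraries of the 3 groups overlap.

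On the log2 RPM scale, where the authors wrote a gene without reads as 0.9 read, the mean difference from WT in Dnmt1 KO was 6.08 for Xlr3a, 6.43 for Xlr3b, 5.14 for Xlr3c and 4.45 for Pnma5. The values of Xlr4a, Xlr4b and Xlr4c were 4.54, 4.11 and 4.66, and that of Pnma3 was 0.21. In Dicer/Dnmt1 KO they were 5.13, 5.80, 5.08 and 3.54 for the first 4, 4.10, 2.83 and 3.46 for the Xlr4 genes, and -0.27 for Pnma3. All members but Pnma3 thus differed by more than the spread of the WT libraries, whose SDs ran from 0.24 (Xlr4c) to 1.64 (Xlr3a). Without WT 4A and WT 4B the differences in Dnmt1 KO were 6.70 for Xlr3a, 4.95 for Pnma5 and 4.41 to 6.61 for the other Xlr genes, and that of Pnma3 was 0.50. In Dicer/Dnmt1 KO they were 5.75 for Xlr3a, 4.04 for Pnma5, 3.12 to 5.98 for the other Xlr genes and 0.017 for Pnma3.

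Per length the members ranked differently from their read counts. In Dnmt1 KO, Pnma5 had 3.85 ± 0.18 RPM per kb of merged exons (SD, n = 4), against 1.38 ± 0.12 for Xlr3c, 1.08 ± 0.19 for Xlr3b and 0.977 ± 0.137 for Xlr3a. Xlr4a, Xlr4c and Xlr4b followed at 0.346, 0.261 and 0.209, and Pnma3 at 0.0325 RPM per kb. Pnma5 led by more than the spread on this scale. The order depended on the length used. Per kb of the longest coding transcript, Xlr3b (2.61 ± 0.47) and Xlr3a (2.40 ± 0.34) lay above Xlr3c (1.38 ± 0.12). Per kb of 100-base windows found nowhere else, Xlr3b led at 11.1 ± 1.99, above Pnma5 (5.55 ± 0.25), Xlr3a (4.01 ± 0.56) and Xlr3c (3.43 ± 0.31). This scale divides all counted reads by these windows, although some of the reads may lie outside them. The values of Xlr3a and Xlr3b thus overlapped on the first 2 scales and were apart on the third, while each Xlr3 gene stood above each Xlr4 gene on all 3. In Dicer/Dnmt1 KO, Pnma5 led per kb of merged exons at 2.08, before Xlr3c at 1.35, Xlr3b at 0.726 and Xlr3a at 0.505 RPM per kb, and Xlr3b led per kb of unique windows at 7.502 ± 2.713, before Xlr3c (3.35 ± 0.84), Pnma5 (2.99 ± 0.49) and Xlr3a (2.07 ± 0.34).

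The comparison of Dicer/Dnmt1 KO with Dnmt1 KO asks whether losing Dicer as well changed the level of the cluster. The choice of members did not use this contrast, although it used the same libraries against WT. The sex chromosome genes Xist and Usp9y and single ESC markers, given above, also differed in this contrast, and their part in the results was not tested. All 8 members had a lower mean in Dicer/Dnmt1 KO, while the median log2 difference over all genes tested was -0.0079. Nothing is read from this count, since copies share sequence and the difference of Xlr3c turned sign without Dicer/Dnmt1 KO 1A or 1B. Xlr3a and Pnma5 were lower without overlap and passed the test among the knockout libraries, though not in the fit that also held the WT libraries, while Xlr3c and Pnma3 showed no detectable difference. In these data fewer cells that express a gene and less RNA per cell cannot be told apart. Only 4 members (Xlr3a, Xlr3b, Xlr3c and Pnma5) passed the filter on low values, all through their levels in the knockouts.

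In the limma fit to all 16 libraries, 0 of these 4 were lower at an adjusted p under 0.05, beside 19.4% of all 12892 genes tested, and 0 had an unadjusted p under 0.05. The log2 difference was -0.95 for Xlr3a (SE 0.76, limma adjusted p = 0.344), -0.63 for Xlr3b (SE 0.55, 0.392), -0.063 for Xlr3c (SE 0.456, 0.927) and -0.91 for Pnma5 (SE 0.46, 0.131). The median of the 4 was -0.77, beside -0.0079 over all genes tested. This fit shares 1 spread between the groups, and the WT libraries, several without a read, had SDs of 0.86 to 1.64 for these genes, beside 0.066 to 0.53 in the knockouts. In the limma fit to the 8 knockout libraries alone, 3 of the 4 were lower, beside 24.5% of all genes. They were Xlr3a (SE 0.160, limma adjusted p = 0.000308), Xlr3b (SE 0.230, 0.0375) and Pnma5 (SE 0.122, 5.58e-05). Xlr3c was not (SE 0.189, 0.805), with an interval of the log2 difference from -0.469 to 0.342.

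Single values were also compared over the 4 against 4 libraries with a two-sided exact permutation test, in which 0.0286 is the smallest p possible. Xlr3a was 1.938-fold lower in Dicer/Dnmt1 KO and Pnma5 1.874-fold lower, both with an exact p = 0.02857. Xlr4b was 2.437-fold lower with the same exact p, Xlr4c 2.286-fold (exact p = 0.05714), Xlr3b 1.544-fold (exact p = 0.1143) and Xlr4a 1.365-fold (exact p = 0.1429). Xlr3c and Pnma3 gave an exact p of 0.7714 and 0.6286. The libraries did not overlap for 3 of 8 members (Xlr3a, Xlr4b and Pnma5), beside 14.6% of all genes with a read. None of these p-values is adjusted for the 8 members compared.

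Without the filter, the 16-library limma fit called Xlr4c lower (log2 difference -1.19, SE 0.33, adjusted p = 0.0156), 1 of 8 members beside 11.3% of all genes, and gave an adjusted p of 0.0554 for Xlr4b at -1.29. In the 8 knockout libraries without a filter, an alternative added after the data were seen, limma called 2 of 8 members, Xlr3a and Pnma5, beside 14.4% of all genes, and 5 of 8 had an unadjusted p under 0.05. There Xlr4c had an adjusted p of 0.0565, Xlr4b of 0.0750 and Xlr3b of 0.101. The call on an Xlr4 gene therefore depended on the filter and on the libraries fitted, whereas Xlr3a and Pnma5 were called in both fits to the knockouts alone.

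**Figure D3:**
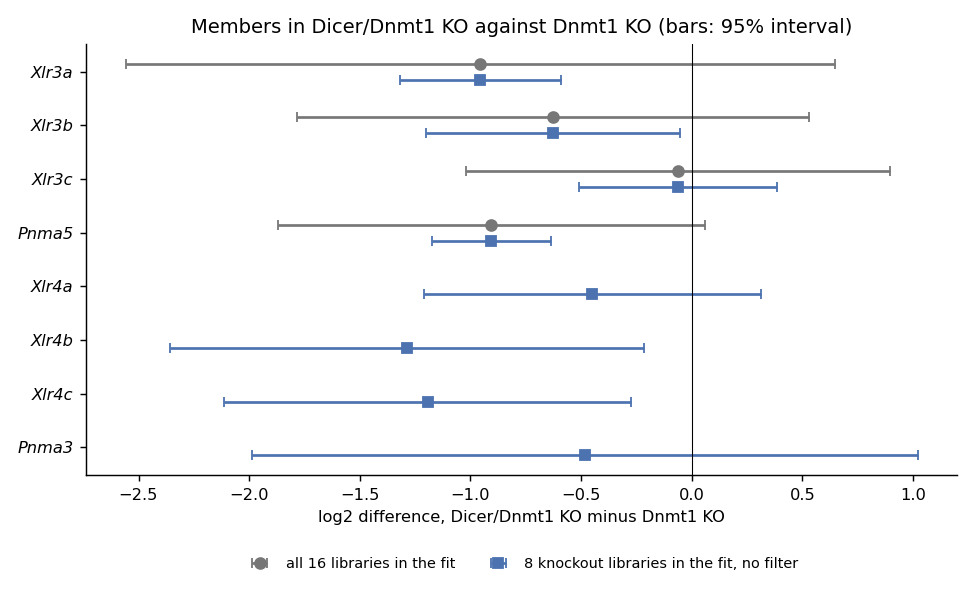
The log2 RPM difference of Dicer/Dnmt1 KO minus Dnmt1 KO is on the horizontal axis with 95% intervals from limma, for the fit to all 16 libraries (circles, the 4 tested members) and for the fit to the 8 knockout libraries without a filter (squares, all 8 members). Each difference lies below 0, Xlr3c is the closest to it at -0.063, and the interval of Xlr3a spans 0 in the first fit and not in the second.

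Sums over the copies do not depend on how the counted reads were divided among them. The summed Xlr3 level was 0.0213 to 0.476 RPM in WT (median 0.164), 10.2 ± 1.42 RPM (SD, n = 4) in Dnmt1 KO and 6.92 ± 1.82 RPM in Dicer/Dnmt1 KO. The knockouts overlapped, at 9.09 to 12.3 and 5.38 to 9.26 RPM, and the 32.2% difference had an exact permutation p = 0.05714. The summed Xlr4 level was 0 to 0.0650 RPM in WT, 1.65 ± 0.37 RPM in Dnmt1 KO and 0.861 ± 0.124 RPM in Dicer/Dnmt1 KO. Here the knockouts did not overlap, at 1.25 to 2.00 and 0.729 to 1.01 RPM, and the 47.8% difference had an exact permutation p = 0.02857, the smallest possible.

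The Xlr3 reads were divided differently among the 3 copies in the 2 knockouts, a pattern noticed after the values were seen. Xlr3c took 20.1% to 22.33% of the Xlr3 reads in the Dnmt1 KO libraries and 30.51% to 31.58% in the Dicer/Dnmt1 KO libraries, a difference of 9.405 percentage points (exact permutation p = 0.02857). Xlr3a took 35.83% to 40.05% and 25.96% to 35.09%, respectively (exact p = 0.02857). Xlr3b kept 39.78% and 38.88% on average (exact p = 0.7429). The share of Xlr3a was thus lower where that of Xlr3c was higher, and shares of the same total are not independent. Of the 6 shares compared, the 3 Xlr4 shares gave exact p-values of 0.2, 0.2857 and 0.4857, and none of the p-values of shares is adjusted for the number compared. Xlr3c shares sequence with Xlr3b, as given above, and the part of shared reads in this result was not tested.

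**Figure D4:**
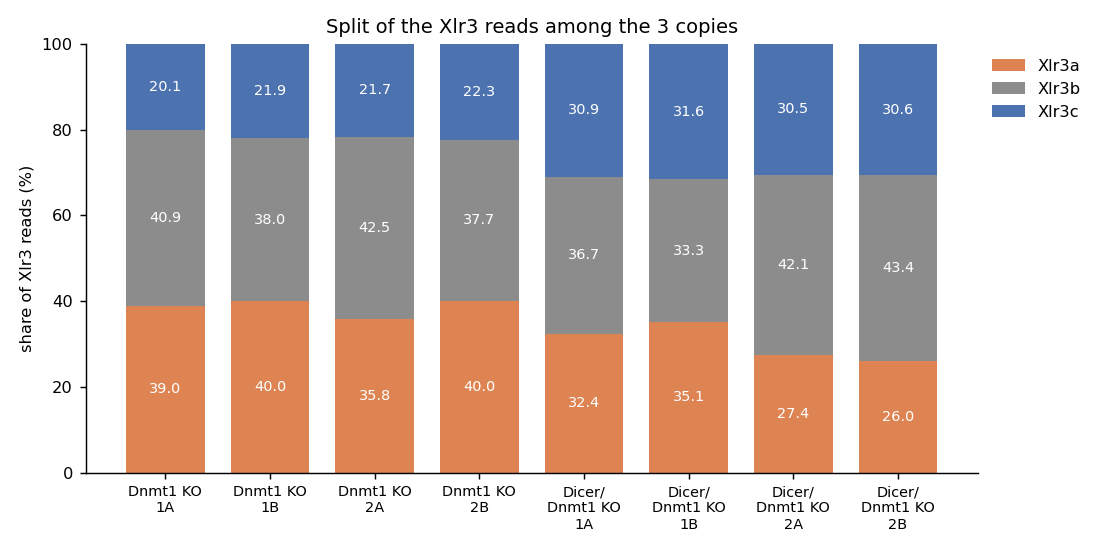
Stacked bars give the percentage of the Xlr3 reads of each library that fell in Xlr3a, Xlr3b and Xlr3c, for the 4 Dnmt1 KO and the 4 Dicer/Dnmt1 KO libraries. Xlr3c takes 20.1% to 22.33% in Dnmt1 KO and 30.51% to 31.58% in Dicer/Dnmt1 KO.

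The genes around the cluster were compared with WT because the choice of members did not use them. Of 27 other genes within 500 kb, 12 were tested, and their median log2 difference was -0.012 for Dnmt1 KO and 0.011 for Dicer/Dnmt1 KO. In Dnmt1 KO 3 of 12 were higher by limma, beside 23.5% of all genes, and 2 of 12 lower, beside 17.5%. In Dicer/Dnmt1 KO 3 were higher, beside 31.9%, and 3 lower, beside 30.1%. The tested neighbors were thus called about as often as genes at large. Genes with few reads did not pass the filter and are not among the 12. The size of the changes is not compared with that of the members, which were chosen for their difference from WT. Both comparisons share the WT libraries.

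Zfp185, a gene of a LIM-domain protein which ends at 70276882, just before Pnma5, differed from WT by -0.078 in the Dnmt1 KO libraries (limma adjusted p = 0.589) and by -0.068 with Dicer also lost (0.591). F8a lies inside the cluster, between Xlr4b and Xlr4c at 70473645 to 70476134, and was singled out as the only tested gene there. It differed by -0.016 (SE 0.19, limma adjusted p = 0.954) and -0.056 (0.809). These genes at the edge of and within the cluster showed no detectable change. Both already had reads in WT, at a mean log2 RPM of 3.27 for Zfp185 and 0.73 for F8a.

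Among the neighbors, Bgn, which encodes the matrix proteoglycan biglycan, passed a 2-fold change in 1 knockout. It was higher by 0.75 on the log2 scale in Dnmt1 KO (SE 0.19, limma adjusted p = 0.00410) and by 1.08 in Dicer/Dnmt1 KO (SE 0.19, adjusted p = 0.000101). With libraries A and B of a number averaged, Bgn in Dnmt1 KO was no longer called (limma adjusted p = 0.0746). Without WT 4A and WT 4B the differences were 0.62 and 0.95, both still called but neither reaching 2-fold. The Dicer/Dnmt1 KO libraries split by number, at log2 RPM 4.98 and 4.99 in 1A and 1B and 4.23 and 3.96 in 2A and 2B. Bgn is also made by fibroblasts, which serve as feeder cells. The summed level of fibroblast markers was 165.8 to 653.5 RPM in WT, 312 to 443.2 RPM in Dnmt1 KO and 457 to 800.5 RPM in Dicer/Dnmt1 KO. In the 2 knockouts 3 and 4 of the 6 tested markers were higher, beside 23.5% and 31.9% of all genes tested. The part of feeder cells in the result was not tested.

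The called neighbors that follow changed less than 2-fold and were named after their values were seen. Slc6a8, the creatine transporter, was higher by 0.52 (limma adjusted p = 0.000653) and 0.68 (2.75e-05) in the 2 knockouts, and Dusp9, a phosphatase of MAP kinases, by 0.48 in Dnmt1 KO (8.80e-05). Nsdhl, an enzyme of sterol synthesis, was lower in Dnmt1 KO (-0.54, SE 0.094, limma adjusted p = 0.000202) and in Dicer/Dnmt1 KO (-0.64, 1.64e-05). Pnck was lower in Dnmt1 KO (-0.63, adjusted p = 0.0450), and Cetn2 (-0.52, 0.0131) and Haus7 (-0.51, 0.00162) in Dicer/Dnmt1 KO. Pnck lost its call when any 1 of 11 libraries was left out (WT 2A, 2B, 3A, 3B or 4B, Dnmt1 KO 2A or 2B, or any Dicer/Dnmt1 KO library), with -0.33 (limma adjusted p = 0.256) without Dnmt1 KO 2A. Cetn2 lost its call without Dicer/Dnmt1 KO 1A (-0.39, adjusted p = 0.0739).

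Untested for their low counts, 2 more Xlr genes of the region stood with the members rather than with the neighbors. Xlr5c, 17.506 kb beyond Xlr3c, had 5 reads in WT, 95 reads in Dnmt1 KO and 80 reads in Dicer/Dnmt1 KO, and Xlr5a, between Xlr3a and Xlr3b at 70352974 to 70363041, had 1, 29 and 26. Xlr5b had 0, 1 and 5 reads. In the limma fit without a filter, Xlr5c was higher than WT by 4.63 in Dnmt1 KO (adjusted p = 7.32e-08) and by 4.31 in Dicer/Dnmt1 KO (7.60e-08), and Xlr5a by 3.16 (5.74e-08) and 2.96 (5.38e-08). In the same fit 17.3% of all genes were higher for Dnmt1 KO and 23.8% for Dicer/Dnmt1 KO. Without WT 4A and WT 4B the differences were 4.87 and 4.56 for Xlr5c and 3.20 and 3.00 for Xlr5a. Genes of all 3 Xlr subfamilies in the region, Xlr3, Xlr4 and Xlr5, were thus higher than in WT. The log2 differences of such scarce genes depend on the value written for 0 reads. Of the coding transcript windows defined above, 27.01% occurred nowhere else for Xlr5a, 15.33% for Xlr5b and 25.37% for Xlr5c. Xlr5a shared 56.54% of its windows with Xlr5b and 43.58% with Xlr5c. Levels of single Xlr5 genes are therefore uncertain between copies, and their calls are not read as separate results.

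**Figure D5:**
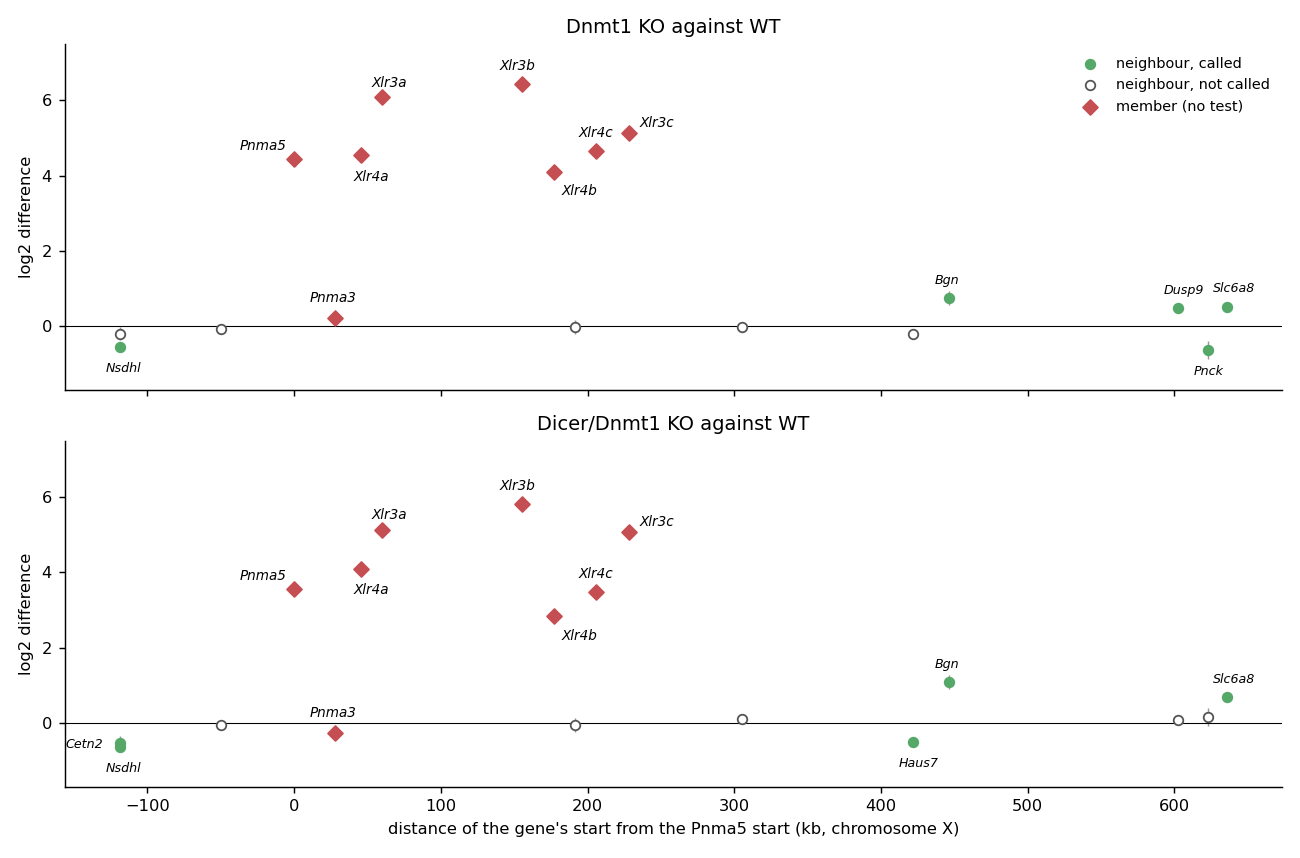
The log2 RPM difference from WT is plotted by the distance of a gene's start from that of Pnma5 in kb, with 1 panel for each knockout, for members (diamonds) and the tested neighbors as far as Slc6a8 (circles, filled where called by limma, with SE bars). The members other than Pnma3 lie between 2.83 and 6.43, while Pnma3 is at 0.21 and -0.27 and the unlabeled open circles inside and beside the cluster lie near 0.

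The wider families held genes that were higher and genes that were lower. Of the 12 genes listed for the Xlr family outside the members, 7 were in the table and 1 was tested. That gene, Sycp3, which encodes the meiotic axis protein, fell by 1.79 in Dnmt1 KO (limma adjusted p = 1.97e-06) and by 2.99 in Dicer/Dnmt1 KO (1.61e-09), and without WT 4A and WT 4B by 1.70 and 2.90. Slx and Slxl1 had 0 reads in all 16 libraries. The founding gene Xlr, elsewhere on the chromosome, had 2 reads in WT, 35 reads in Dnmt1 KO and 14 reads in Dicer/Dnmt1 KO, and in the limma fit without a filter was higher by 2.96 (adjusted p = 0.00128) and 1.65 (0.0349). The reads of Dicer/Dnmt1 KO were in 2A and 2B, with 5 and 9, while 1A and 1B had 0 as did 6 of the 8 WT libraries. Without WT 4A and WT 4B the call in Dicer/Dnmt1 KO was lost (1.68, limma adjusted p = 0.0544).

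Of 8 other PNMA genes, 4 were tested, and limma called 0 of them higher and 2 lower in each knockout. The shares at large were 23.5% and 17.5% for Dnmt1 KO, and 31.9% and 30.1% for Dicer/Dnmt1 KO. With only 4 genes, no family result is read from these counts. The lower genes in Dnmt1 KO were Ccdc8 (-1.18, limma adjusted p = 8.75e-05) and Pnma2 (-0.42, 7.72e-05). In Dicer/Dnmt1 KO they were Pnma2 (-0.37, 0.000128) and Moap1 (-0.35, 0.0120), which encodes a partner of the apoptosis protein BAX. Without WT 4A and WT 4B these 4 differences were -1.34, -0.41, -0.36 and -0.33 and were called. In the limma fit without a filter, Pnmal1 was higher in Dnmt1 KO by 2.27 (SE 0.62, adjusted p = 0.0102), with 21 reads in WT and 3 to 24 reads in each Dnmt1 KO library, and Zcchc12 was lower in Dicer/Dnmt1 KO (-1.05, adjusted p = 0.0232).

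Markers of cells known for Xlr expression were summed beside these results. Male germ cell markers summed to 24.95 to 39.12 RPM in WT, 47.73 to 53.88 RPM in Dnmt1 KO and 54.91 to 58.98 RPM in Dicer/Dnmt1 KO. In the 2 knockouts 3 and 4 of the 5 tested genes were higher, beside 23.5% and 31.9% of all genes tested. Lower were 0 and 1 of the 5, beside 17.5% and 30.1%. Lymphoid markers overlapped in the 3 groups (4.81 to 6.427, 4.516 to 5.917 and 5.15 to 6.695 RPM), with 0 of 1 tested genes called, and Rag1, which lymphocytes need to rearrange their receptor genes, had 0 reads throughout. In the limma fit without a filter, Cd79a and Cd3e were higher in Dicer/Dnmt1 KO by 1.21 (adjusted p = 0.0150) and 1.89 (adjusted p = 0.0372). The part of germ cell and lymphoid genes in the level of the cluster was not tested.

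The genes outside the cluster whose log2 RPM followed the mean profile of the 4 tested members most closely over the 16 libraries were BC061212 (Pearson's r = 0.992), Usp26 (0.988), Gm14149 (0.986), Gm6763 (0.985) and Efhc2 (0.982). Usp26 and Efhc2 also lie on chromosome X. All of these values use the same libraries, including the step from WT to the knockouts, and are given as a description. With the group means taken out, the closest were Mt2 (0.885), Zglp1 (0.856), Mt1 (0.822), Etv4 (0.810) and Gm364 (0.810), of which 0 were among the first 5.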

How the data were processed

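RNA-seq of 16 ESC libraries was analyzed. The authors trimmed reads with Trim Galore (0.3.5 in the submitters' processing notes), aligned them with TopHat (2.0.11) to NCBIM37, removed alignments of low mapping quality and deposited SeqMonk values as log2 RPM, in which a gene without reads stands as 0.9 read. The columns returned whole reads for 100% of values, within 0.01. A further 35 value columns were not used. The values of 1 neighboring gene are not reported here.

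limma 3.58.1 in R 4.3.3 fitted 3 group means to the deposited log2 values, with an intensity trend, for the 12892 genes above log2 RPM 0 in at least 4 libraries. Benjamini-Hochberg adjusted p-values under 0.05 were called. Other tests were two-sided and exact. Sequences of 100 bases were searched in the NCBIM37 annotation, and promoters came from RefSeq. The scripts were tested on simulated data. Alternatives were other filters, scalings, pseudocounts, library subsets and blocks. The members, lists and naming rule were chosen with earlier results of these data known. Named were the members, targeted genes, family lists, the most similar genes, adjacent genes and neighbors called with a 2-fold change.

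The SD of the log2 difference between libraries A and B of a number was 0.2354 to 0.3592, and between numbers 0.3038 to 0.7503, so libraries counted as replicates may not be independent. Numbers were shared by the groups, but same-numbered Dnmt1 KO and Dicer/Dnmt1 KO libraries did not deviate together (r = -0.22). Between WT and a knockout r was -0.34 and 0.41 (Dnmt1 KO, numbers 1 and 2) and 0.58 and -0.11 (Dicer/Dnmt1 KO). As not every r was over 0.1, the groups were not treated as paired.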

Additional observations from a re-analysis of the deposited data

Results flagged for a closer look

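In 4 of 60 groups of libraries checked, 1 library stood further from the nearest other library than Dixon's 95% critical value allows as a share of the range of the group, and chance gives about 5% of such groups. Xlr3a in Dnmt1 KO 1A, at 4.773 RPM, was above the next library at 3.777 RPM, with a gap of 0.86 of the range. Without this library the log2 difference of Xlr3a in Dicer/Dnmt1 KO from Dnmt1 KO was -0.86 in the limma fit to the other 15 libraries. Xlr3b in WT 4A, at 0.1732 RPM, lay above the next at 0.08135 RPM, with a gap of 0.53 of the range, and WT 4A is 1 of the 2 WT libraries with low Dnmt1. Xlr4a in WT 1A, at 0.03171 RPM, and Xlr4c in WT 4A, at 0.02165 RPM, each rest on the 1 read of their gene in WT, beside 0 in the other 7 libraries, so the gap is the whole range (1).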

How the results depend on the processing

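Of 1176 recomputed values, 1061 kept their direction and their side of the threshold, moved by less than the spread or, for counts, stayed near the main count. Some of these fits left out a library of the group outside the comparison, which could not change the difference itself. The number of members lower in Dicer/Dnmt1 KO than in Dnmt1 KO was 0 by limma on all libraries and 0 on leaving out any 1 library. It became 3 with log2(RPM + 1), 3 with only the 8 knockout libraries and 2 with those and no filter. It was 1 without a filter (Xlr4c), and 1 (Pnma5) by voom, with a replicate block, with the crossed pairing and without both WT number 4 libraries. A crossed pairing was added because same-numbered libraries of the knockouts correlated at -0.22. In Dnmt1 KO the 3 higher neighbors became 5 without a filter and 1 within 250 kb, and the 2 lower ones 1 without a filter, with A and B averaged, with the replicate block, crossed or not, by voom, with WT numbers 1 and 2 only, without WT number 4 and within 250 kb, and 1 to 2 on leaving out 1 library. In Dicer/Dnmt1 KO the 3 higher became 7 without a filter and 1 within 250 kb, and the 3 lower 4 without a filter, where Gabra3 joined (-1.46, adjusted p = 0.0180), and 2 to 3 on leaving out 1 library. With the replicate block Cetn2 in Dicer/Dnmt1 KO lost its call (-0.26, limma adjusted p = 0.112), as did Pnck in Dnmt1 KO, and Cetn2 lost it also with the crossed block (adjusted p = 0.0700), with A and B averaged (0.0906) and with WT numbers 1 and 2 only (0.137). Where not stated, the cause was not tested.

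Values near 0 turned sign. Xlr3c became 0.028 and 0.036 in Dicer/Dnmt1 KO against Dnmt1 KO without Dicer/Dnmt1 KO 1A or 1B (lowest -0.21, without 2A). Cetn2 in Dnmt1 KO became 0.069 with either block or with WT numbers 1 and 2 only. Zfp185 became 0.053 and 0.063 in the 2 knockouts against WT numbers 3 and 4 only. F8a in Dnmt1 KO became 0.039 with either block or WT numbers 1 and 2 only, 0.024 without WT number 4, and 0.010 to 0.16 on leaving out 1 of 4 libraries (0.010, 0.045, 0.053 and 0.16), and in Dicer/Dnmt1 KO 0.00524 and 0.012 (range -0.13 to 0.012). Pnck in Dicer/Dnmt1 KO became -0.18 after quantile normalization. Pnma3 became -0.43 in Dnmt1 KO against WT numbers 3 and 4 only and -0.00274, -0.043 and -0.20 on leaving out 1 library (range up to 0.80), and in Dicer/Dnmt1 KO 0.37 against WT numbers 1 and 2 only, 0.017 without WT number 4 and 0.13 without Dicer/Dnmt1 KO 2B (lowest -0.60, without 2A). Depth limits the Xlr4 genes and Pnma3 most, since 3 reads correspond to 0.0571 to 0.09537 RPM.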
